A study of Homo sapiens with 6 samples.

Results

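The liver X receptors and 7 of their target genes for sterol efflux, receptor decay and phospholipid remodelling were followed in Huh7 cells, an established human hepatoma line. The set comprised the receptor genes NR1H3 and NR1H2 and the targets ABCA1, ABCG1, ABCG5, ABCG8, MYLIP, LPCAT3 and SMPDL3A. It was taken by gene symbol, not by expression, though with earlier results of these data known. All 9 genes were found among the 57905 Ensembl genes of the deposited table. Cells were transfected with a scrambled siRNA (siControl, 3 libraries) or with an siRNA against ASGR1 (siASGR1, 3 libraries) and harvested after 72 h, with no other treatment named. The comparison asks how the transcripts of a liver cell line respond to lowered ASGR1. The product of ASGR1 is the main chain of the hepatic asialoglycoprotein receptor, which clears desialylated glycoproteins from plasma. The labels name 1 cell line and 1 siRNA condition against ASGR1, so the loss of ASGR1 and other effects of that siRNA cannot be told apart.

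Liver X receptors are nuclear receptors that bind oxysterols, the oxidised forms of cholesterol, and act on DNA as heterodimers with retinoid X receptors. NR1H3 encodes LXRα, which is abundant in liver, and NR1H2 encodes LXRβ, which is found in most tissues. Active LXR turns on genes that move cholesterol out of cells, limit its uptake and change the membrane: ABCA1 and ABCG1 load cholesterol onto lipoprotein particles, the ABCG5/ABCG8 heterodimer exports sterols into bile, MYLIP marks lipoprotein receptors for degradation, and LPCAT3 puts polyunsaturated acyl chains into phospholipids.

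The DNA element of LXR is shown first as background, and whether it bears on any change below was not tested. The DR4 element is a pair of AGGTCA half-sites in the same direction, 4 bases apart. RefSeq promoter windows (GRCh38.p14, 250 bases before to 50 after a start) were matched for 7 of the 9 genes, with ABCG1 and SMPDL3A unmatched. Both strands were searched, with up to 2 mismatches allowed among the 12 fixed letters. ABCA1 alone of the 7 held a match, with 2 mismatches, from 69 to 54 bases before its RefSeq start. The 7 genes had 10 windows, and 2.34% of all 35116 windows held a match. In GENCODE v29 these bases lie in the first exon of a longer ABCA1 transcript that begins at position 104928237. The match is in capitals in the first sequence, which is the gene's own strand, so the element reads on the opposite strand as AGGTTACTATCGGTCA. The second sequence lies between the RefSeq starts of ABCG5, to its left on the minus strand, and ABCG8, to its right on the plus strand. It is the 98 of the 131 bases there that are in no GENCODE v29 exon. GENCODE v29 also starts ABCG8 further left, at position 43831942. It is shown because ABCG8 was called higher and its neighbour was not. No part of it is marked. A match is a description of letters, and the absence of one says only that these letters are not in the window.
ABCA1, chr9:104928202-104928231, minus strand: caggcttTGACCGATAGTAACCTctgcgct
ABCG5 to ABCG8, chr2:43838866-43838963, plus strand: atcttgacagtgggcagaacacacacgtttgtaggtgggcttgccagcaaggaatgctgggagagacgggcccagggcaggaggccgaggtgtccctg

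Levels are FPKM (fragments per kilobase of exon, scaled to sequencing depth), which are relative to each library's total and adjusted for gene length. They rested on 16310000 to 19311000 fragments per library, as recovered from the values themselves. Means are given ± SD with n = 3 libraries. The labels do not say that the libraries came from separate cultures, so the spread may be technical. ASGR1 itself was 17.3 ± 0.38 in siControl and 4.71 ± 0.11 in siASGR1 in the table of the whole series, but 14.8 ± 0.90 in the siASGR1 libraries' own files. It was the only gene whose values differed between these sources, so the extent of the knockdown depends on the source, while values of the 9 genes did not.

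Of the 9 genes, 8 were called higher in siASGR1 and none lower (limma on log2(FPKM + 1), Benjamini-Hochberg adjusted p under 0.05). Among all 13568 genes tested, 20.9% were called higher and 40.4% lower. The median log2 fold change was 0.744 over the 9 genes and -0.134 over all tested genes. The 3 siASGR1 values lay above all 3 siControl values for the same 8 genes, as they did for 23.5% of all tested genes. A gene was tested if it reached 1 FPKM in at least 3 libraries, and ABCG8 did so only in siASGR1, so its test was open only because it was high there. Without it, 7 of 8 were called, with a median of 0.725. ABCG8 was also called when all genes above 0 were tested (log2 fold change 1.30, limma adjusted p = 0.000731). At least 2-fold in mean FPKM were 5 of the 9 genes, against 3.31% of all tested genes that were called higher and reached that fold. The 5 genes include ABCG8, whose test was open only because it was high in siASGR1. They also include LPCAT3, whose change is uncertain because it shares exon bases with EMG1. In bulk libraries, more RNA per cell and more cells that express a gene cannot be told apart.

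**Figure D1:**
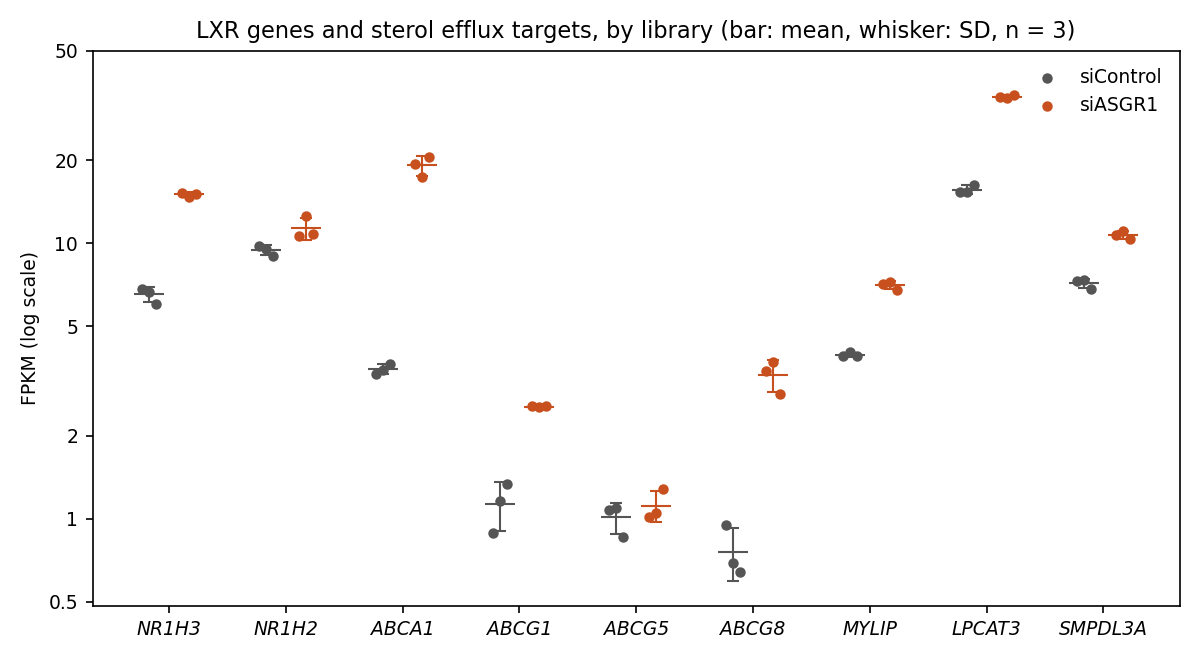
FPKM of the 9 genes on a log axis, with a point for each library, a bar at the mean and a whisker of 1 SD (n = 3 per group). The siASGR1 points lie above the siControl points for every gene except ABCG5, and ABCA1 shows the widest gap, from 3.50 to 19.2 FPKM.

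The receptor genes were described first. NR1H3 (ENSG00000025434; GRCh38 chromosome 11, 47248300 to 47269032, plus strand) was listed at 6.84, 6.68 and 6.05 FPKM in siControl and at 15.25, 14.74 and 15.16 in siASGR1. The lowest siASGR1 library was 2.16 times the highest siControl library, and the groups did not overlap. The mean rose 2.31-fold, from 6.52 ± 0.42 to 15.1 ± 0.27, with a log2 fold change of 1.09 (SE 0.05, limma adjusted p = 7.91e-06). NR1H3 shares 189 exon bases, 4.17% of its own, with ACP2, a lysosomal phosphatase gene on the opposite strand. ACP2 rose 2.51-fold, from 5.93 ± 0.88 to 14.9 ± 0.25. The strand setting of the counting is not given in the sources used here, and without strand the reads of such shared stretches cannot be told apart.

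NR1H2 (ENSG00000131408; chromosome 19, 50329653 to 50382982, plus strand) was 9.77, 9.55 and 9.01 FPKM in siControl and 10.63, 12.54 and 10.85 in siASGR1. The groups did not overlap, but the gap between them was 0.86 FPKM and siASGR1 replicate 2 stood above the other libraries of its group. The mean rose 1.2-fold, with a log2 fold change of 0.24 (SE 0.07, limma adjusted p = 0.0196). The call did not survive leaving out siControl replicate 3 (limma adjusted p = 0.0578) or testing all genes above 0 (limma adjusted p = 0.0514). Over 14 alternative settings its log2 fold change ranged from 0.17 to 0.38.

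The ratio of the receptor transcripts in FPKM differed between the groups. NR1H3 stood at 0.700, 0.700 and 0.672 of the NR1H2 level in the siControl libraries and at 1.44, 1.18 and 1.40 of it in the siASGR1 libraries. NR1H2 was therefore the higher of the pair in every siControl library and NR1H3 in every siASGR1 library. On the log2(FPKM + 1) scale the within-library ratio was 0.86 higher in siASGR1 (SE 0.08). The exact permutation test over libraries gave p = 0.1, two-sided, which is the smallest value that 3 against 3 libraries allow, and the same after adjustment over the 2 pairs tested.

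**Figure D2:**
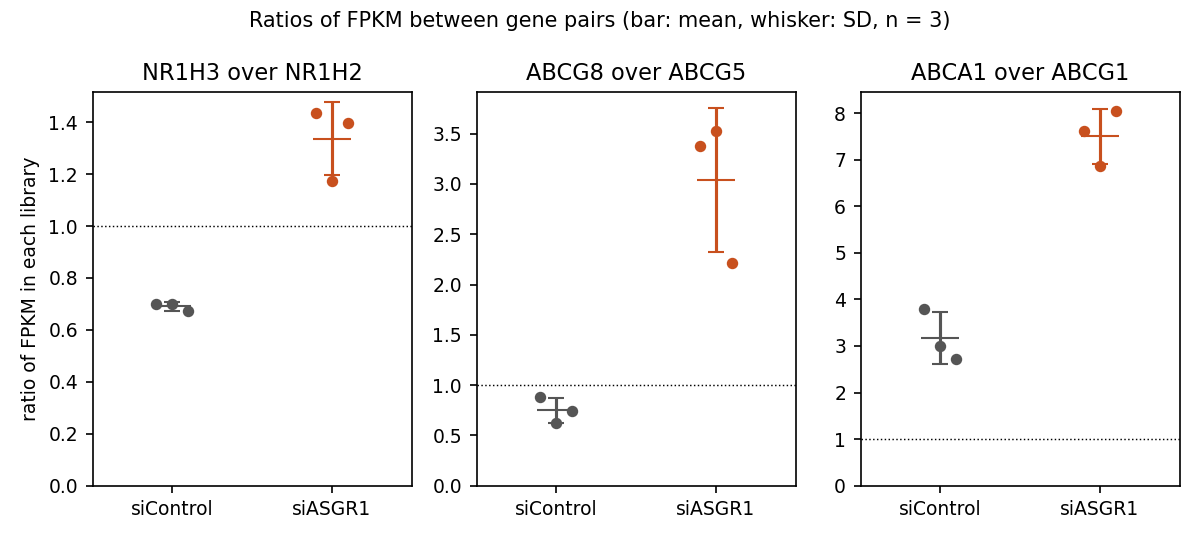
Ratio of FPKM within each library for NR1H3 over NR1H2, ABCG8 over ABCG5 and ABCA1 over ABCG1, with the mean and SD (n = 3) and a dotted line at equal levels. The first and second ratio lie below 1 in all 3 siControl libraries and above 1 in all 3 siASGR1 libraries. Where a ratio lies against 1 rests on the gene lengths used by the authors.

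Among the efflux transporters, ABCA1 changed most. ABCA1 (ENSG00000165029; chromosome 9, 104781002 to 104928237, minus strand) passes cholesterol and phospholipid to lipid-poor apolipoprotein A-I. It was 3.37, 3.47 and 3.66 FPKM in siControl and 19.48, 17.45 and 20.59 in siASGR1, so even the lowest siASGR1 library was 4.77 times the highest siControl library. The mean rose 5.48-fold, with a log2 fold change of 2.16 (SE 0.07, 95% interval 2.00 to 2.32, limma adjusted p = 2.08e-06), which placed it at percentile 99.9 of all tested genes. In level it moved from percentile 33 of tested genes in siControl to percentile 82.5 in siASGR1. The promoter with the DR4 match shown above is that of this gene; no binding was measured.

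ABCG1 (ENSG00000160179; chromosome 21, 42199689 to 42297244, plus strand), which exports cholesterol to mature HDL, was 0.89, 1.16 and 1.34 FPKM in siControl and 2.56, 2.54 and 2.56 in siASGR1. The coefficient of variation was 20% over the siControl libraries and 0.45% over the siASGR1 libraries. The mean rose 2.26-fold (log2 fold change 0.74, SE 0.10, limma adjusted p = 0.000498). Adding 1 before the logarithm understates changes of such low genes, and with 0.1 added the value was 1.13, and with limma-voom on rebuilt reads 1.21. ABCA1 was 3.17 ± 0.55 times as high as ABCG1 in siControl and 7.51 ± 0.59 times as high in siASGR1, and the ratios did not overlap.

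Of ABCG5 and ABCG8, whose products work as 1 heterodimer and whose RefSeq starts lie head to head on chromosome 2, ABCG8 was called higher and ABCG5 was not. ABCG8 (ENSG00000143921; 43831942 to 43882987, plus strand) was 0.95, 0.69 and 0.64 FPKM in siControl and 3.45, 3.70 and 2.84 in siASGR1. The lowest siASGR1 library was 2.99 times the highest siControl library, and the mean rose 4.38-fold (log2 fold change 1.30, SE 0.11, limma adjusted p = 7.20e-05). With 0.1 added in place of 1 the log2 fold change of ABCG8 was 2.00, and with limma-voom on rebuilt reads it was 2.12. ABCG5 (ENSG00000138075; 43812472 to 43838865, minus strand) was 1.08, 1.10 and 0.86 FPKM in siControl and 1.02, 1.05 and 1.28 in siASGR1. Its groups overlapped, with means of 1.01 ± 0.13 and 1.12 ± 0.14. The log2 fold change of 0.07 (SE 0.10) had a 95% interval of -0.17 to 0.32 (limma adjusted p = 0.574), which lies wholly below the interval of ABCG8, 1.03 to 1.56. With quantile normalization ABCG5 was called higher (log2 fold change 0.32, limma adjusted p = 0.0357).

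In the siControl libraries ABCG8 stood at 0.880, 0.627 and 0.744 of the ABCG5 level, and in the siASGR1 libraries at 3.38, 3.52 and 2.22 of it. The log2 ratio of (FPKM + 1) was 1.23 higher in siASGR1 (SE 0.15), or 1.88 higher with 0.1 added in place of 1, and the exact permutation test again gave the smallest possible p = 0.1. About 52 to 92 reads per library lay behind the ABCG5 values if the exon length of GENCODE v29 (3720 bases) holds for the authors' annotation, so counting error alone is sizeable there. The genes share 137 exon bases on opposite strands in that annotation, 3.68% of ABCG5. ABCG8 levels also rest on the gene length used by the authors, which is not given in the sources used here. Its 4.38-fold ratio of mean FPKM is free of that length, whereas the log2 fold change of FPKM + 1 is not.

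**Figure D3:**
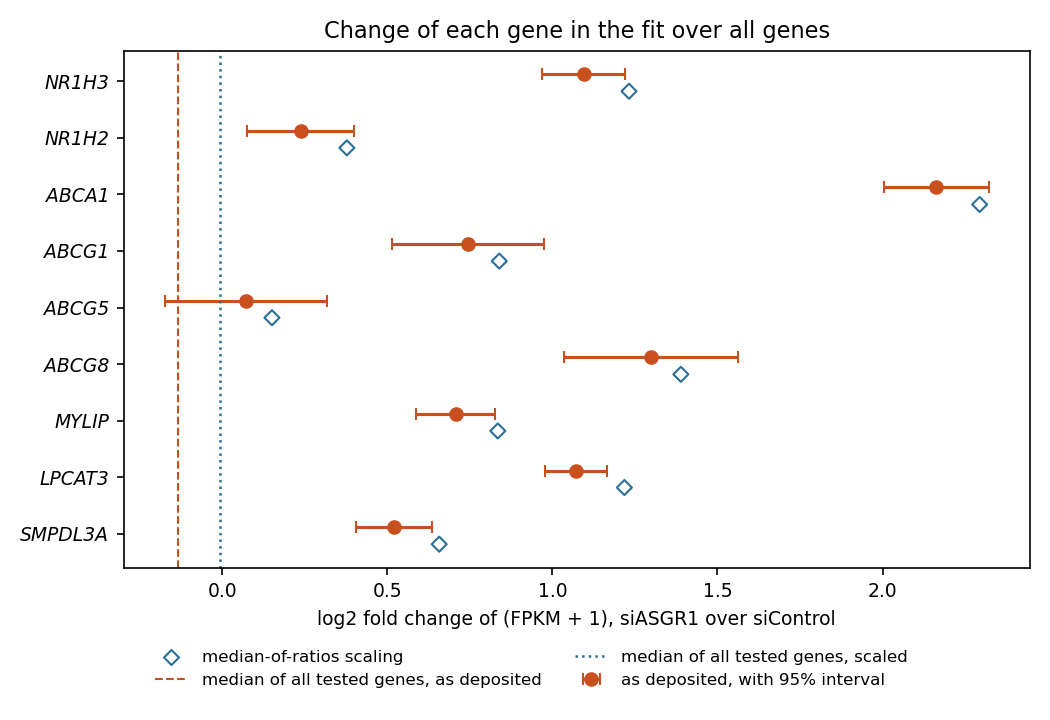
Log2 fold change of (FPKM + 1) for the 9 genes with 95% intervals from limma (filled), and the same after median-of-ratios scaling (open diamonds), beside the median of all tested genes in each case. The intervals of 8 genes lie above 0, that of ABCG5 spans it, and scaling shifts every gene upward without changing a call.

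The targets that act on receptors and membranes rose less than ABCA1. MYLIP (ENSG00000007944; chromosome 6, 16129125 to 16148248, plus strand), the ubiquitin ligase also called IDOL, was 3.89, 4.02 and 3.90 FPKM in siControl and 7.14, 7.26 and 6.78 in siASGR1. Libraries within each group lay close together, and the mean rose 1.79-fold (log2 fold change 0.71, SE 0.05, limma adjusted p = 3.38e-05). Among mRNAs of receptors that MYLIP protein marks for degradation, LRP8 and VLDLR went opposite ways. LRP8 rose 1.30-fold, from 5.42 ± 0.28 to 7.07 ± 0.51 FPKM, and VLDLR was 1.80-fold lower, at 3.23 ± 0.045 and 1.80 ± 0.27. Protein levels were not measured.

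LPCAT3 (ENSG00000111684; chromosome 12, 6976186 to 7018510, minus strand) had the highest level of the 9 genes in both groups. It was 15.36, 15.39 and 16.30 FPKM in siControl and 33.93, 33.80 and 34.47 in siASGR1, and the mean rose 2.172-fold (log2 fold change 1.07, SE 0.04, limma adjusted p = 3.23e-06). EMG1, a ribosome biogenesis gene on the opposite strand, overlaps 3100 of its exon bases, 65.6% of the LPCAT3 exons in GENCODE v29. EMG1 rose 1.897-fold, from 13.9 ± 0.85 to 26.4 ± 1.45 FPKM. Without strand, reads in the shared bases belong to either gene, so the LPCAT3 level and its change are uncertain. How much EMG1 reads contribute was not tested.

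SMPDL3A (ENSG00000172594; chromosome 6, 122789049 to 122809720, plus strand) encodes a secreted phosphodiesterase related to acid sphingomyelinase. It was 7.31, 7.35 and 6.85 FPKM in siControl and 10.68, 11.07 and 10.40 in siASGR1. The groups did not overlap, and the mean rose 1.49-fold (log2 fold change 0.52, SE 0.05, limma adjusted p = 0.000109). With NR1H2 it showed the smallest change of the genes called.

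The order of the levels differed between the groups. Levels of different genes are compared here by FPKM and so rest on the gene lengths used by the authors. In siControl it ran from LPCAT3 through NR1H2, SMPDL3A, NR1H3, MYLIP, ABCA1, ABCG1 and ABCG5 to ABCG8, and the ranges of ABCG1 and ABCG5 and of ABCG5 and ABCG8 overlapped. In siASGR1 it ran from LPCAT3 through ABCA1, NR1H3, NR1H2, SMPDL3A, MYLIP, ABCG8 and ABCG1 to ABCG5, and only the ranges of NR1H2 and SMPDL3A overlapped among neighbours. ABCA1 moved from the sixth to the second place, and ABCG8 from the ninth to the seventh. Summed over the 9 genes, the FPKM were 48.6 to 49.5 in siControl and 104.1 to 104.9 in siASGR1, of which LPCAT3 and ABCA1 made up the largest parts in siASGR1.

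FPKM are relative to the library total, and median-of-ratios scaling, which centres the typical gene, shifted the log2 fold change of the median tested gene upward by 0.127. The same 8 genes were called higher with that scaling, when 29.9% of all tested genes were called higher and 28.9% lower. Scaled log2 fold changes were 2.29 for ABCA1, 1.39 for ABCG8, 1.23 for NR1H3, 1.22 for LPCAT3, 0.84 for ABCG1, 0.83 for MYLIP, 0.66 for SMPDL3A and 0.38 for NR1H2. ABCG5 was at 0.15 and again not called (limma adjusted p = 0.249).

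Other genes of the pathway were read from lists chosen by function, with earlier results of these data known. Of the 13 lipogenic and lipoprotein targets of LXR, 10 were tested, of which 7 rose and 3 fell, with a median log2 fold change of 0.85. Among all tested genes 20.9% were called higher and 40.4% lower, with a median of -0.134. PLTP, the phospholipid transfer protein, rose 2.12-fold, SREBF1, which drives fatty acid synthesis, rose 4.75-fold, and FASN, fatty acid synthase, rose 2.55-fold. Those that fell included MLXIPL (1.65 ± 0.062 FPKM against 3.86 ± 0.43 in siControl) and ELOVL5 (25.1 ± 1.35 against 38.9 ± 1.63), named after their values were seen. LPL and CD5L were listed at 0 in all 6 libraries. Targets of LXR were thus found in both directions outside the 9 genes.

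The proteins that accept or process effluxed sterol were mostly higher. Of 6 such genes, which share PLTP and APOE with the preceding list, 5 rose and 1 fell. The shares over all tested genes were 20.9% called higher and 40.4% called lower. APOA1, the main HDL protein and acceptor for ABCA1, rose 2.11-fold, from 613.2 ± 12.5 to 1291 ± 121 FPKM, and APOA2 rose 3.33-fold. LCAT, which esterifies cholesterol on HDL, was the gene that fell, from 5.04 ± 1.06 to 3.02 ± 0.12 FPKM.

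Partners and coregulators of LXR showed no common direction: of 15 listed, 13 were tested, 3 rose and 6 fell (5 and 4 with median-of-ratios scaling). Of all tested genes, 20.9% were called higher and 40.4% lower, or 29.9% and 28.9% with that scaling. The list lay near these shares. NCOA2, a coactivator, rose 1.94-fold. The coactivator gene NCOA3 was 1.53-fold lower. Of the retinoid X receptors, named after their values were seen, RXRA was 6.03 ± 0.30 and 6.75 ± 0.26 FPKM (limma adjusted p = 0.059, and 0.00524 with median-of-ratios scaling), RXRB rose 1.24-fold, and RXRG was listed at 0 throughout.

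Of 9 genes of oxysterol synthesis and clearance only 3 were tested. CYP27A1, which makes 27-hydroxycholesterol, rose 1.73-fold, from 4.60 ± 0.25 to 7.96 ± 0.45 FPKM. HSD3B7, an enzyme that converts oxysterols towards bile acids, was 1.47-fold lower, a call lost with median-of-ratios scaling (limma adjusted p = 0.0501). CH25H and CYP7B1 were listed at 0 in all libraries. Oxysterols themselves were not measured.

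SREBP2 targets, the genes of cholesterol synthesis and uptake, were mostly lower: 7 of 10 fell and 1, INSIG1, rose, with a median log2 fold change of -0.59. Among all tested genes 40.4% were called lower and 20.9% higher, with a median of -0.134. SQLE was 2.175-fold, HMGCS1 1.55-fold and LSS 1.52-fold lower. With median-of-ratios scaling 7 fell and 3 rose, when 28.9% of all tested genes were called lower and 29.9% higher.

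Relatives of the 9 genes within their protein families are set beside the share of all tested genes called higher, 20.9%, and lower, 40.4%. Of 13 other ABCA and ABCG transporters 3 were tested, of which none rose and 2 fell: ABCA3, a lipid transporter of lung surfactant, was 3.25-fold lower, and ABCA7 was 1.84-fold lower. ABCG4, the closest relative of ABCG1, was under the filter, at 0.56 to 0.71 FPKM in siControl and 0 to 0.03 in siASGR1. Of 6 other lysophospholipid acyltransferases, 4 were tested and all 4 fell. LPCAT4 was 1.36-fold, LPCAT1 1.16-fold and MBOAT1 1.59-fold lower, but of the 4 only LPCAT4 was called with median-of-ratios scaling. MBOAT1 reached 1 FPKM only in siControl, so its test was open only because it was high there. Of 5 other sphingomyelinase family genes, 3 were tested. SMPD4 rose 1.25-fold and SMPD1, acid sphingomyelinase, was 1.35-fold lower, the latter not called with median-of-ratios scaling (limma adjusted p = 0.0559).

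**Figure D4:**
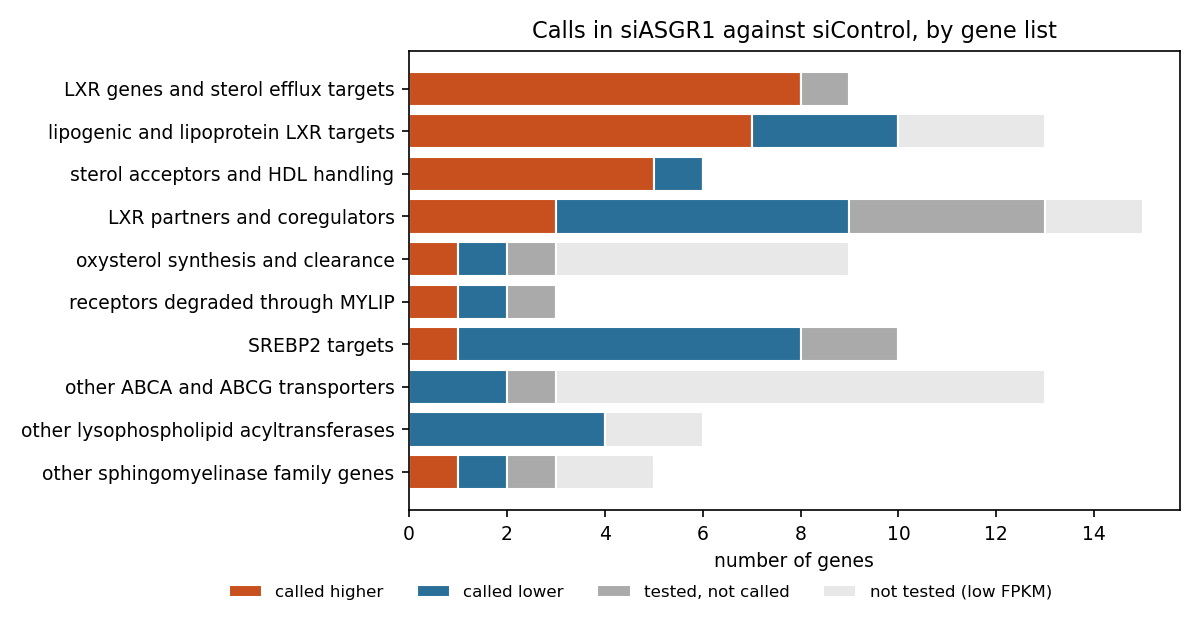
Number of genes in each list that were called higher, called lower, tested without a call, or not tested because of low FPKM (values as deposited). The 9 genes and the lipogenic and sterol acceptor lists are mostly higher, and SREBP2 targets and the other acyltransferases are mostly lower. With median-of-ratios scaling 1 of the 4 tested acyltransferases was called lower. Of all tested genes, as deposited, 20.9% were called higher and 40.4% lower.

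Markers of cell type were read beside these results. All 8 hepatocyte markers, which share APOA1 with the sterol acceptor list, rose (FGB 5.32-fold, HNF4A 2.27-fold and SERPINA1 2.11-fold). Their summed level was 3544 to 3685 FPKM in siControl and 6233 to 6352 in siASGR1. AFP, named after its values were seen, made up most of that sum, with means of 2158.5 in siControl and 3517.8 in siASGR1. Among all tested genes 20.9% were called higher. Macrophages are another site of strong LXR activity, and 7 of their 8 markers were under the filter. PTPRC was at 0.01 FPKM or less, and C1QA and C1QB were at 0 in every library. The summed macrophage level was 1.42 to 2.34 in siControl and 1.73 to 1.85 in siASGR1. CD14, the marker that was tested and named after its values were seen, made up most of that sum. It was 1.62 ± 0.47 in siControl and 1.62 ± 0.064 in siASGR1 and was not called. Of 8 fibroblast markers, 3 were tested: COL1A1 and COL1A2 fell, and PDGFRA rose 2.44-fold. COL1A1 and COL1A2 reached 1 FPKM only in siControl, so their tests were open only because they were high there. The summed fibroblast level was 10.1 to 11.1 FPKM in siControl and 11.03 to 12.3 in siASGR1, of which PDGFRA made up most in siASGR1. Without PDGFRA the other 7 markers summed to 5.55 to 6.72 FPKM in siControl and 0.64 to 0.88 in siASGR1. The part of the hepatocyte genes' rise in the changes of the LXR genes was not tested.

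Among the genes whose profiles over the 6 libraries were most like that of ABCA1, by the root mean square difference of centred log2(FPKM + 1) values, were H2BC5 (0.053), H2AC6 (0.108), RRM2 (0.12) and CEBPD (0.13). For NR1H3 they were PSMG1 (0.038), GANAB (0.04), PPP6R2 (0.04), SERPINA1 (0.04) and NOP56 (0.042). With 2 groups of 3 libraries such a likeness reflects mainly a similar difference between the groups. H2BC5 and H2AC6 are histone genes with near-identical copies, so their values are uncertain.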

How the data were processed

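RNA from 6 Huh7 libraries was sequenced after TruSeq RNA library preparation. Per the submitters' processing notes, the tools were HISAT2 2.0.1, cutadapt 1.9.1 and bcl2fastq 2.17.1.14, and the build was hg19. Not given in the sources used here are the counting program, its strand setting and its annotation. Values deposited by the authors are FPKM, per the file headers, rounded to 2 decimals, in 1 table of the whole series and 1 file per library. The table's name says counts, but its columns are FPKM, and its values were used.

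Symbols were paired with 51996 of 57905 IDs. Coordinates, exon lengths (52338 IDs) and overlaps are from GENCODE v29 on GRCh38, and promoters from RefSeq. Depth was recovered by finding the fragment number that makes most low values whole reads, within rounding plus 0.02 reads (95.5% to 96.2% of values, against 13% to 13.8% by chance); it was fitted on those values. No 2 libraries of a group agreed within sampling noise (chi-square per degree of freedom of 2.57 to 5.64).

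Genes with at least 1 FPKM in at least 3 libraries (13568) were fitted with limma 3.58.1 in R 4.3.3 on log2(FPKM + 1), with 1 term for the group and a variance prior that follows the level, two-sided, Benjamini-Hochberg adjusted over all of them. Paralogue ratios were compared by an exact permutation test. On simulated reads for 12808 genes the fit recovered 22%, 58%, 96% and 94% of 50 genes each changed 1.2-fold, 1.5-fold, 2-fold and 4-fold, with 7.53% false calls. Only those genes were changed, and the same dispersion was set for all genes, whereas 8319 genes were called in the data. The simulated rates therefore need not hold for these data. Tables and plots used Python 3.11.15 with matplotlib 3.10.9, scipy 1.17.1, pandas 2.3.3 and numpy 2.4.6.

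The genes, lists and tests were chosen with earlier results of these data known. Named were all 9 genes, ASGR1, the called genes with the 3 smallest p-values in each of 12 lists and the 5 profiles nearest to ABCA1 and to NR1H3. Neighbours that share exons were added by annotation. Also named after their values were seen were APOE, LCAT, INSIG1, ABCG4, LPL, CD5L, CH25H, CYP7B1, PTPRC, C1QA and C1QB. Any other name is marked in the text. Some genes that this rule takes up are not reported. Alternatives covered scaling, pseudocount, filters, the prior, a replicate block, limma-voom on rebuilt reads, the libraries' own files and leaving out each library.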

Additional observations from a re-analysis of the deposited data

How the results depend on the processing

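Over the alternatives, 120 of 123 recomputed tests of the 9 genes kept their direction and their side of the threshold. The exceptions were NR1H2, no longer called in 2 settings, and ABCG5, called with quantile normalization, all given above. The number of the 9 genes called was 8 as deposited, 9 with quantile normalization, 7 with no filter on low values, and 7 to 8 when single libraries were left out. It was 6 with at least 5 FPKM required, since ABCG1, ABCG5 and ABCG8 were then not tested. The count of all genes lower in siASGR1 was 5480 as deposited and 3382 with at least 5 FPKM, when 7829 genes were tested. The replicate numbers did not pair the libraries (correlation of deviations -0.0189 to 0.0125 for equal numbers); with a replicate block 8064 genes were called against 8319, and the same 8 of the 9 genes. The paralogue differences ranged from 0.81 to 0.95 for NR1H3 to NR1H2 and from 1.08 to 1.37 for ABCG8 to ABCG5 without single replicate numbers, and were 0.94 and 1.88 with 0.1 added in place of 1. Depth limits ABCG5, ABCG8 and ABCG1 most. The simulated recovery of 1.2-fold changes was 22%, with far fewer genes changed than were called in these data.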
